A study of Mus musculus with 6 samples.

Results

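The 10 genes described here encode 6 class 3 semaphorins (Sema3a, Sema3b, Sema3c, Sema3d, Sema3e and Sema3f), both neuropilins (Nrp1 and Nrp2) and the plexins Plxna2 and Plxnd1. They were taken by symbol from a table of raw read counts for 15159 genes, and all 10 had a row there and passed the filter on low counts that left 14758 genes. They were chosen with the comparison below already known, so their values in it are a description. Polyadenylated RNA was sequenced from cells of the embryonic mouse heart (day 18.5, C57BL/6 x 129S4/SvJae) kept for 4 days on a soft silicone substrate of 13 kPa. In H3K9M cells doxycycline induced a histone H3.3 with methionine in place of lysine 9 (3 libraries), and in H3WT cells, the controls, it induced wild-type H3.3 (3 libraries). Both groups received doxycycline at 2 µg/ml. The labels give neither the promoter of the transgene, nor the cells in which it is active, nor whether separate embryos gave the 3 libraries of each group, so the p-values refer to the spread among libraries, which may be technical.

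Class 3 semaphorins are secreted guidance proteins. Most of them bind a neuropilin, which has no signalling domain of its own, and the signal is passed on by a plexin that acts on small GTPases inside the cell. Neuropilins also bind growth factors of the VEGF family. In the mouse heart this system is known for guiding neural crest cells and septation of the outflow tract (Sema3c with Plxna2 and Plxnd1), patterning of the pulmonary veins (Sema3d), sympathetic innervation (Sema3a) and shaping of vessels (Sema3e, which binds Plxnd1 directly).

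The libraries held between 55550379 and 67994773 counts. Levels are CPM (counts per 1000000 counts of the normalised library), and fold changes come from edgeR's quasi-likelihood test over all 14758 genes with Benjamini-Hochberg adjustment at 0.05. Cardiomyocyte markers were high in both groups, with Tnnt2, cardiac troponin T, between 6022 and 6187 CPM in H3K9M and between 5646 and 6161 CPM in H3WT. The H3.3 genes H3f3a (1360 ± 109 CPM in H3K9M and 1465 ± 125 CPM in H3WT, SD, n = 3 each) and H3f3b do not check the labels, because the counts do not separate the transgene from the endogenous genes. In H3WT replicate 1 the summed level of 8 macrophage markers was 468 CPM, against 128 to 248 CPM in the other 5 libraries.

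In the genome, 4 of the ligand genes lie in a row on the plus strand of chromosome 5 (build GRCm38, also called mm10; GENCODE M21 gene spans). They are Sema3d at 12383385 to 12588948, Sema3a at 13125414 to 13602565, Sema3e at 14025276 to 14256689 and Sema3c at 17574281 to 17730268, a stretch of 5.35 Mb. The gaps between them, in this order, are 536 kb, 423 kb and 3.32 Mb. Sema3b and Sema3f are 72.3 kb apart on the minus strand of chromosome 9, at 107597674 to 107609229 and 107681500 to 107710475. Nrp2 (62703285 to 62818695) and Plxna2 (194618218 to 194816869) are on chromosome 1, Plxnd1 (115954811 to 115995005) is on chromosome 6 and Nrp1 (128358604 to 128503363) on chromosome 8. No exon of the 10 genes overlaps another annotated gene except for 80 bases of Nrp1, which hold the microRNA gene Mir1903. At most 1.53% of the 50-base words of their transcripts (Plxna2) also occur in another gene.

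The 250 bases before the RefSeq start (GRCm38.p6) are shown for the 3 genes that passed the test, Sema3c and Sema3d, which were lower in H3K9M, and Nrp2, which was higher. Capitals mark the GC box GGGCGG, the core bound by SP1, on either strand.
Sema3c, chr5:17574566-17574815, plus strand: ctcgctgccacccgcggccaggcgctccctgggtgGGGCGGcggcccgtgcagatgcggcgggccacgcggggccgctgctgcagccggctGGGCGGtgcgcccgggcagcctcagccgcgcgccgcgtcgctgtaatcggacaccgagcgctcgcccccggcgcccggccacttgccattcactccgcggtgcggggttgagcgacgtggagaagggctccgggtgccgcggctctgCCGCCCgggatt
Sema3d, chr5:12382916-12383165, plus strand: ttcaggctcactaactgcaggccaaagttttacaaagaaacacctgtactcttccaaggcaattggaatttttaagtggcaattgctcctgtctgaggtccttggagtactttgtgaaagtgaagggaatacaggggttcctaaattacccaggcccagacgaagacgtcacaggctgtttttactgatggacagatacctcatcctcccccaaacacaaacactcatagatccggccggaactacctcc
Nrp2, chr1:62703067-62703316, plus strand: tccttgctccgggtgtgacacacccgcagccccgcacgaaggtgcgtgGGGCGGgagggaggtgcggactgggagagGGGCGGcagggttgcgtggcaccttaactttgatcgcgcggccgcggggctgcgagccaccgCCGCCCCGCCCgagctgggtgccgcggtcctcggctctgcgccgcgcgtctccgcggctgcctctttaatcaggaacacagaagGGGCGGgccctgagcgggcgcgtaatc
The RefSeq starts differ from the GENCODE starts above. By GENCODE the window of Sema3c lies inside the gene, that of Nrp2 runs past the gene start and that of Sema3d ends before it. The windows of the genes that fell differ in composition. The window of Sema3c has a GC content of 78.4% and 39 CpG sites, more sites than 98.4% of 32851 promoter windows. The window of Sema3d has a GC content of 46.8% and 4 CpG sites, more than 37.8% of windows. The window of Nrp2 has a GC content of 72.4% and 32 CpG sites, and the median window has 6 sites. GGGCGG occurs 3 times before Sema3c, 5 times before Nrp2 (with a pair that overlaps by a base) and 0 times before Sema3d, and 32.7% of all windows hold it. The core of GATA factor sites, GATAA, was found on neither strand of these 3 windows and is in 22.6% of all windows. The same held for the box TATAAA, which 12.4% of all windows hold. Of the 10 genes, 8 matched the RefSeq table and Sema3b and Sema3f did not. These matches describe letters and not binding.

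The question put to these genes was whether their transcripts differed when the mutant histone was induced in place of the wild-type one. Of the 10 genes, Sema3c and Sema3d fell and Nrp2 rose in H3K9M at an edgeR adjusted p under 0.05. Over all genes tested 1.05% fell and 0.935% rose, 1.99% in either direction. The median log2 fold change was -0.67 over the 6 ligand genes, 0.04 over the 4 receptor genes and -0.002 over all genes tested. The library ranges of H3K9M and H3WT were separate in 6 of the 10 genes (2 higher and 4 lower), against 22.6% of all genes. Since the genes were chosen on this comparison, nothing is read from these shares.

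**Figure D1:**
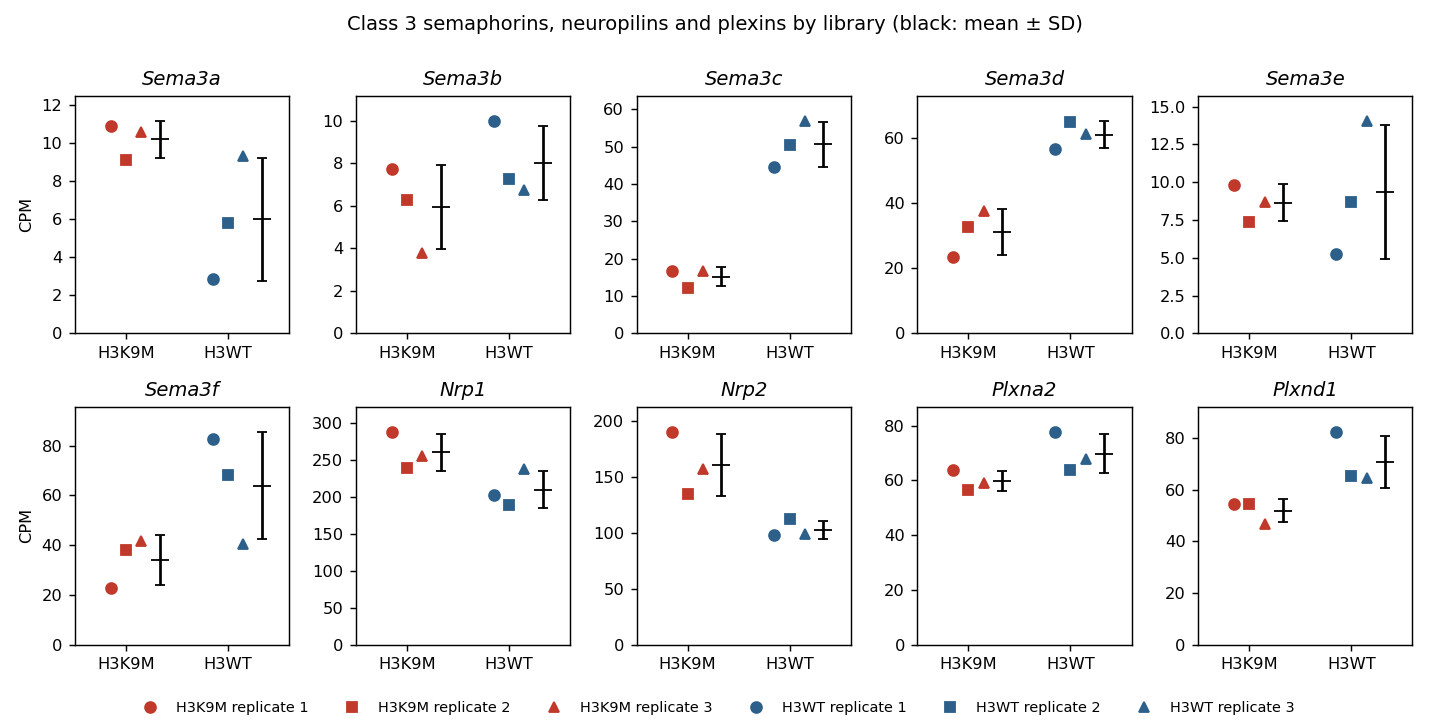
Level of each of the 10 genes in CPM (linear axis from 0), with a point for each library, H3K9M left of H3WT, and the mean ± SD of 3 libraries in black. Sema3c and Sema3d lie lower in every H3K9M library and Nrp2 higher, while Sema3a, Sema3b, Sema3e and Sema3f overlap between groups.

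Among the ligands, Sema3c, which guides cardiac neural crest cells, stood farthest apart. It was at 16.8, 12.2 and 16.6 CPM in H3K9M replicates 1, 2 and 3, against 44.5, 50.3 and 56.8 CPM in H3WT replicates 1, 2 and 3. The highest H3K9M library lay far below the lowest H3WT library. Its mean of 15.2 ± 2.57 CPM in H3K9M was 30.0% of the 50.6 ± 6.15 CPM in H3WT (SD, n = 3 each). The log2 fold change was -1.74 ± 0.15 (SE; edgeR adjusted p = 0.00222). By p-value Sema3c was at place 9 of 14758 genes. It remained past the threshold in all 13 alternatives, with log2 fold changes between -1.82 and -1.61.

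Sema3d, a ligand that also repels endothelial cells, was at 23.4, 32.6 and 37.4 CPM in the H3K9M libraries, against 56.5, 64.9 and 61.2 CPM in the H3WT libraries. The groups did not overlap, and the mean of 31.1 ± 7.10 CPM in H3K9M was 51.1% of the 60.9 ± 4.19 CPM in H3WT. On the log2 scale it changed by -0.97 ± 0.16 (edgeR adjusted p = 0.0254). The call was lost without H3K9M replicate 2 (edgeR adjusted p = 0.0939) or H3WT replicate 2 (0.117). In a culture of mixed cells, fewer cells of a type and less RNA per cell cannot be told apart, here and in all results below.

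Sema3f, which binds Nrp2 and is known to restrain vessel growth, had the highest mean level per kilobase among the ligand genes in both groups. It was at 22.6, 38.0 and 41.5 CPM in the H3K9M libraries, against 82.9, 68.2 and 40.4 CPM in the H3WT libraries. H3WT replicate 3 lay inside the H3K9M range, while the other two H3WT libraries lay above it. The log2 fold change of -0.91 ± 0.28 did not pass (edgeR adjusted p = 0.161), though without H3WT replicate 3 it was -1.15 with an edgeR adjusted p of 0.0437.

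Sema3a, the collapsing factor of growth cones that shapes cardiac sympathetic innervation, was the 1 ligand gene with a positive fold change. It was at 10.9, 9.08 and 10.5 CPM in the H3K9M libraries, against 2.85, 5.77 and 9.31 CPM in the H3WT libraries. The H3K9M libraries were close to each other and the H3WT libraries spread over more than a 3-fold range, with H3WT replicate 3 among the H3K9M values. The log2 fold change of 0.76 ± 0.35 did not pass (edgeR adjusted p = 0.333). It was 1.24 without H3WT replicate 3 and 0.43 without H3WT replicate 1, with edgeR adjusted p-values of 0.0698 and 0.460.

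The remaining ligand genes overlapped between groups. Sema3b, the neighbour of Sema3f and a ligand of both neuropilins, was at 7.74, 6.27 and 3.80 CPM in the H3K9M libraries, against 10.0, 7.28 and 6.74 CPM in the H3WT libraries (log2 fold change -0.43 ± 0.27, edgeR adjusted p = 0.484). Its log2 fold change was -0.19 without H3K9M replicate 3, -0.24 without H3WT replicate 1 and -0.67 without H3K9M replicate 1. Sema3e, the ligand of Plxnd1, was at 9.84, 7.37 and 8.71 CPM in the H3K9M libraries, against 5.26, 8.67 and 14.0 CPM in the H3WT libraries (-0.11 ± 0.31, edgeR adjusted p = 0.899). Its sign depended on H3WT replicate 3, without which the log2 fold change was 0.31. Along chromosome 5 the log2 fold changes were -0.97 for Sema3d, 0.76 for Sema3a, -0.11 for Sema3e and -1.74 for Sema3c. The pair that passed, Sema3d and Sema3c, was lower in H3K9M, and Sema3a and Sema3e between them did not pass.

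Nrp2, a co-receptor of Sema3c and Sema3f, was the 1 gene of the 10 that rose. It was at 189.8, 135 and 157 CPM in the H3K9M libraries, against 97.5, 112 and 98.7 CPM in the H3WT libraries, and the groups did not overlap. The mean of 161 ± 27.6 CPM in H3K9M was 156% of the 103 ± 7.93 CPM in H3WT, or 0.65 ± 0.12 on the log2 scale (edgeR adjusted p = 0.0421). The call lay close to the threshold: it was kept without H3K9M replicate 2 and lost without any 1 of the other 5 libraries (edgeR adjusted p between 0.0690 and 0.121), at log2 fold changes between 0.51 and 0.71.

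Nrp1, the co-receptor of Sema3a and of VEGF-A, was at 287, 238.6 and 255 CPM in the H3K9M libraries, against 203, 189 and 236.9 CPM in the H3WT libraries. The lowest H3K9M library thus lay just above the highest H3WT library. Its log2 fold change of 0.31 ± 0.11 did not pass (edgeR adjusted p = 0.197).

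Of the plexins, Plxnd1, which in the vasculature receives Sema3e and also responds to Sema3c, was at 54.3, 54.4 and 46.6 CPM in the H3K9M libraries, against 82.2, 65.2 and 64.5 CPM in the H3WT libraries. The groups did not overlap. The log2 fold change of -0.45 ± 0.11 had an edgeR adjusted p of 0.0938 and did not pass, while DESeq2 on the same counts gave an adjusted p of 0.0134. Plxna2, a partner of Nrp1 in neural crest cells, was at 63.76, 56.5 and 59.1 CPM in the H3K9M libraries, against 77.6, 63.83 and 67.8 CPM in the H3WT libraries. Its groups were separated by less than 1 CPM, and the log2 fold change of -0.22 ± 0.09 did not pass (edgeR adjusted p = 0.280). Without H3WT replicate 1 it was -0.14.

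Levels between genes were compared as CPM per kilobase of annotated exon. In H3K9M the order of the mean levels was Nrp1 (26.6), Nrp2 (13.6), Plxnd1 (7.09), Sema3f (6.55), Sema3d (3.62), Plxna2 (3.48), Sema3c (2.13), Sema3b (1.24), Sema3e (0.930) and Sema3a (0.734). Library ranges overlapped there between Plxnd1 and Sema3f, Sema3f and Sema3d, Sema3d and Plxna2, and Sema3b and Sema3e. In H3WT the order was Nrp1 (21.4), Sema3f (12.3), Plxnd1 (9.68), Nrp2 (8.67), Sema3d and Sema3c (7.08 each), Plxna2 (4.06), Sema3b (1.68), Sema3e (1.00) and Sema3a (0.431). There the neighbours Sema3f and Plxnd1, Plxnd1 and Nrp2, Sema3d and Sema3c, Sema3b and Sema3e, and Sema3e and Sema3a overlapped. Sema3c, level with Sema3d in H3WT, lay below it in every H3K9M library. The order depends on the length used: with the longest transcript in place of all exons, 8 of 10 genes kept their place in H3WT but 4 of 10 in H3K9M, where Sema3f and Plxnd1, Plxna2 and Sema3d, and Sema3a and Sema3e exchanged places.

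On the same scale the 6 ligands summed to 12.9, 15.6 and 17.1 CPM per kilobase in the H3K9M libraries, against 31.6, 30.6 and 26.5 in the H3WT libraries. The neuropilins summed to 45.4, 35.8 and 39.3 CPM per kilobase in the H3K9M libraries, against 28.9, 28.8 and 32.5 in the H3WT libraries. The ratio of the ligand sum to the neuropilin sum was 0.284, 0.435 and 0.436 in H3K9M and 1.09, 1.06 and 0.813 in H3WT. The groups did not overlap in any of these 3 measures. Sema3c made up 14.2 ± 3.67% of the ligand sum in H3K9M and 24.3 ± 5.29% in H3WT, whereas the share of Sema3d was 23.6 ± 2.20% and 24.1 ± 3.10% and that of Sema3f 42.4 ± 7.51% and 40.9 ± 10.7% (SD, n = 3 each). Nrp1 exceeded Nrp2 by a factor of 1.98 ± 0.156 in H3K9M and 2.49 ± 0.429 in H3WT. With the longest transcript as length, an alternative added after seeing the data, the ratio of ligands to neuropilins averaged 0.239 in H3K9M and 0.588 in H3WT, and that of Nrp1 to Nrp2 3.01 in H3K9M and 3.79 in H3WT. The size of these ratios thus rests on the annotation, while the groups stayed apart in the ratio of ligands to neuropilins (0.177 to 0.272 in H3K9M and 0.471 to 0.651 in H3WT). These sums are built from the genes above and were not tested.

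**Figure D2:**
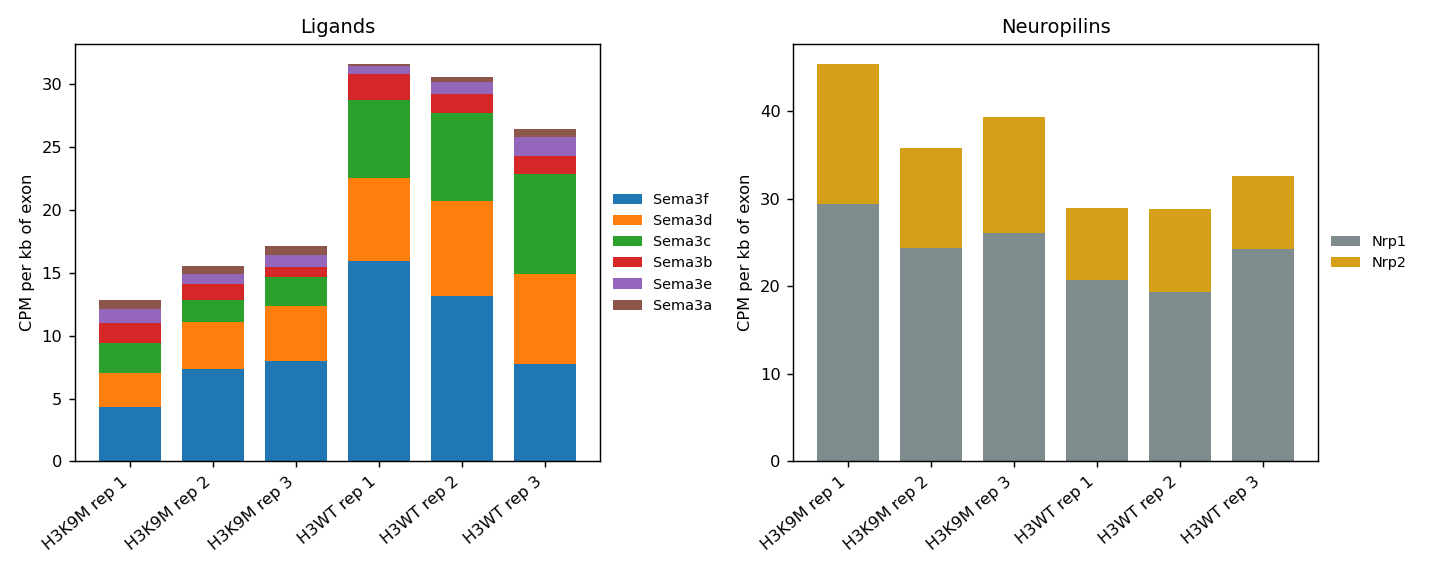
Stacked CPM per kilobase of exon (linear axis from 0) for the 6 class 3 ligands (left panel) and the neuropilins (right panel), with a bar for each library, H3K9M left of H3WT. The ligand stacks reach 12.9 to 17.1 in H3K9M and 26.5 to 31.6 in H3WT, and the neuropilin stacks 35.8 to 45.4 in H3K9M and 28.8 to 32.5 in H3WT.

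Sema3g, the seventh class 3 ligand of the mouse, had a low level, at 0.393 to 1.32 CPM in H3K9M and 0.926 to 2.64 CPM in H3WT (log2 fold change -1.10 ± 0.57, edgeR adjusted p = 0.387). Of the 13 tested semaphorins outside the 10 genes, which are mostly membrane-bound or anchored, 1 fell and 10 had negative fold changes, with a median log2 fold change of -0.35, where 50.5% of all genes had negative fold changes. Sema3g, Sema4a, Sema4g, Sema5b and Sema6b, among those with negative fold changes, had low mean levels. These ran from 0.283 CPM (Sema5b in H3K9M) to 2.15 CPM (Sema4g in H3WT). The gene that fell was Sema5a, a transmembrane semaphorin with thrombospondin repeats, at 42.1, 34.7 and 41.7 CPM in the H3K9M libraries, against 62.9, 60.9 and 60.1 CPM in the H3WT libraries (-0.63 ± 0.09, edgeR adjusted p = 0.0181). Its call was lost without H3K9M replicate 3 (0.0507) or H3WT replicate 2 (0.0972). For Sema4c the log2 difference was -0.49 ± 0.14 (edgeR adjusted p = 0.125), and the most abundant per kilobase, Sema6d and Sema7a, had -0.40 ± 0.15 and 0.28 ± 0.26. The value of Sema6d was -0.18 without H3WT replicate 1, and that of Sema7a lay between 0.03 (without H3K9M replicate 1) and 0.57 (without H3WT replicate 3). Over all 19 semaphorins tested, 3 fell, 0 rose and 15 had negative fold changes, but Sema3c and Sema3d, 2 of the 3, had been chosen on this comparison. At an unadjusted p under 0.05, 1 of the 19 was higher and 6 were lower, against 7.78% and 8.61% of all genes. DESeq2 called 0 higher and 4 lower, against 3.22% and 3.69% of all genes, and limma-voom 0 and 3, against 0.745% and 0.759%.

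The other 7 plexins had a median log2 fold change of 0.02 and none passed in edgeR. At an unadjusted p under 0.05, 0 were higher and 1 was lower, against 7.78% and 8.61% of all genes. DESeq2 called 0 and 1, against 3.22% and 3.69% of all genes, and limma-voom none. That gene was Plxna4, a receptor of Sema3a with Nrp1, at 14.7, 10.1 and 14.8 CPM in the H3K9M libraries, against 21.0, 19.7 and 21.9 CPM in the H3WT libraries (-0.66 ± 0.16, edgeR adjusted p = 0.0766 and DESeq2 adjusted p = 0.00421). The most abundant plexins per kilobase were Plxnb2, a receptor of class 4 semaphorins, at 735 ± 29.6 CPM in H3K9M and 677 ± 32.4 CPM in H3WT, and Plxna1, at 456 ± 39.3 and 420.1 ± 48.1 CPM. For Plxnc1, the receptor of Sema7a, the log2 difference was -0.66 ± 0.34 (edgeR adjusted p = 0.392), and -0.20 without H3WT replicate 1.

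**Figure D3:**
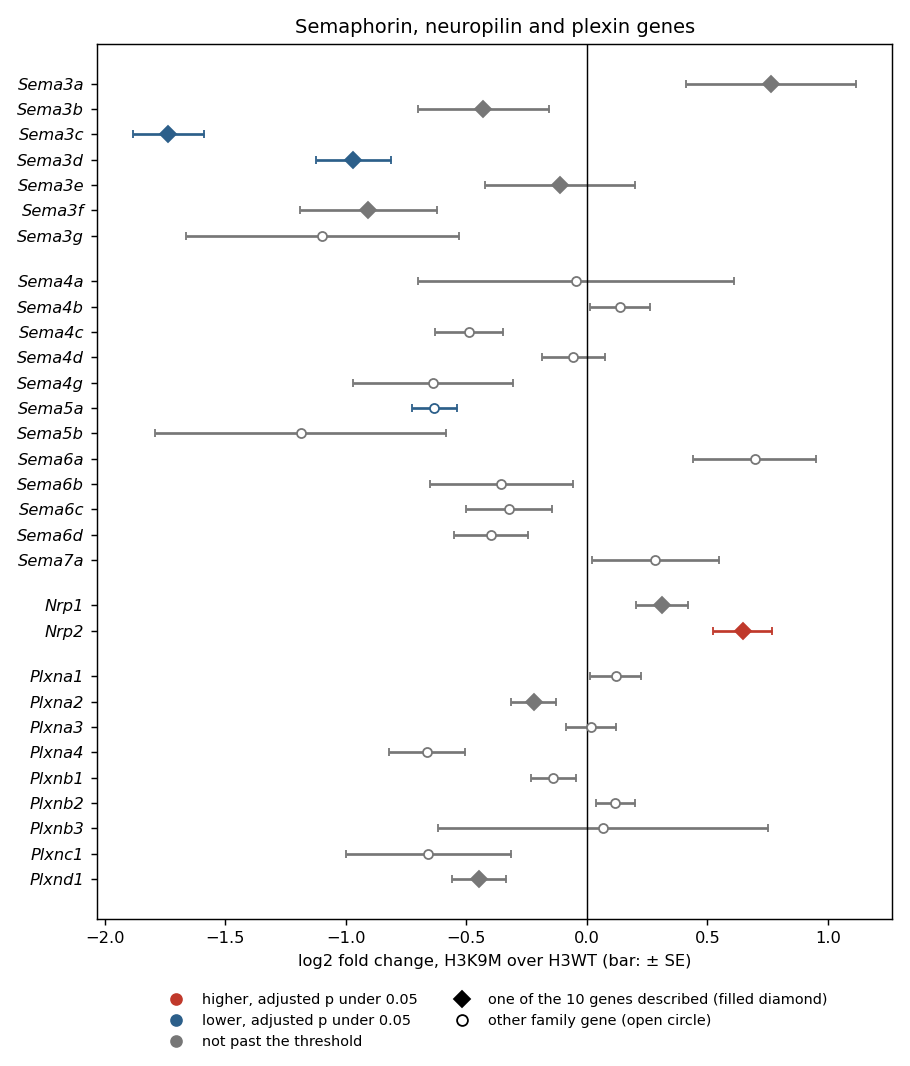
Log2 fold change of H3K9M over H3WT with its SE (bars) for the semaphorin, neuropilin and plexin genes tested, from edgeR over all genes. Sema3c (-1.74), Sema3d (-0.97) and Sema5a (-0.63) passed as lower and Nrp2 (0.65) as higher, while no plexin passed.

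Over all genes tested 1.05% fell and 0.935% rose in edgeR, and the rest of the pathway is set beside these shares. Of 7 tested genes of the VEGF arm, which shares the neuropilins, 1 fell: Vegfc, the lymphatic growth factor that Nrp2 co-receives, at 9.87, 11.8 and 12.9 CPM in the H3K9M libraries, against 21.6, 19.1 and 16.95 CPM in the H3WT libraries (-0.73 ± 0.14, edgeR adjusted p = 0.0431). That call survived the removal of H3WT replicate 3 but of no other library (0.0859 to 0.160), and it was lost with limma-voom (0.0517). Vegfa was at 189 ± 29.1 CPM in H3K9M and 168 ± 17.5 CPM in H3WT, Vegfb had a log2 fold change of -0.14 ± 0.11 and the receptor gene Flt1 one of -0.47 ± 0.16, none of them past the threshold. At an unadjusted p under 0.05, 4 of the 7 were lower (Vegfc and the receptor genes Flt1, Kdr and Flt4) and 0 higher. Over all genes 8.61% were lower and 7.78% higher. Kdr (-1.11 ± 0.45) and Flt4 (-0.42 ± 0.16) overlapped between groups. The median log2 fold change of the 7 was -0.42. DESeq2 called 0 higher and 1 lower, against 3.22% and 3.69% of all genes. Of 28 co-receptors and intracellular transducers 1 fell, Dpysl4, a relative of the collapsin response mediator Dpysl2. It was at 1.08, 0.543 and 0.820 CPM in the H3K9M libraries, against 2.82, 2.83 and 2.95 CPM in the H3WT libraries (-1.82 ± 0.33, edgeR adjusted p = 0.0373), a call that was lost without any 1 of the 6 libraries (0.0571 to 0.143). Its relative Dpysl5 was also low, at 0.395 to 0.489 CPM in H3K9M and 1.06 to 1.41 CPM in H3WT (-1.46 ± 0.41, edgeR adjusted p = 0.117). The most abundant per kilobase were the actin severing factor Cfl1 (-0.03 ± 0.10) and the small GTPase Arf6 (0.03 ± 0.07).

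Of 7 proteases that process semaphorins or neuropilins none passed in edgeR, with 0 higher and 2 lower at an unadjusted p under 0.05. DESeq2 called 1 lower and limma-voom none. Pcsk5, a convertase of the furin family, was at 14.5, 16.9 and 18.7 CPM in the H3K9M libraries, against 22.8, 24.6 and 26.9 CPM in the H3WT libraries (-0.57 ± 0.12, edgeR adjusted p = 0.0576). Adam10 had a log2 fold change of -0.16 ± 0.07, and Adamts1, a protease that cleaves Sema3c, one of -0.46 ± 0.24, neither past the threshold. That of Adamts1 was -0.19 without H3WT replicate 1. Over all 62 tested genes of these 5 lists, 3 fell and none rose in edgeR, against 1.99% of all genes in either direction. At an unadjusted p under 0.05, 2 of the 62 were higher and 14 lower, DESeq2 called 0 higher and 7 lower, and limma-voom 0 and 2. Over all genes the shares were 7.78% and 8.61% at an unadjusted p under 0.05, 3.22% and 3.69% in DESeq2, and 0.745% and 0.759% in limma-voom. The median log2 fold change over the 62 was -0.09. Sema4f, Vegfd and Chl1, of the same lists, were not analysed here.

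Markers of the cells that the culture could hold were set beside the 10 genes. The summed level of 9 fibroblast markers had the same order of libraries within each group as Sema3f. It was 11553, 15811 and 18358 CPM in H3K9M replicates 1, 2 and 3, against 19489, 17172 and 12870 CPM in H3WT replicates 1, 2 and 3. This sum was mostly collagen transcripts, and not all single markers kept that order. None of the 9 passed in edgeR, and neither DESeq2 nor limma-voom called any. At an unadjusted p under 0.05, 2 (Tcf21 and Dpt) were lower, against 8.61% of all genes. The collagen gene Col1a1 was between 4933 and 6962 CPM in H3K9M and between 4936 and 5911 CPM in H3WT, while Pdgfra was at 115.6, 104.6 and 88.3 CPM in H3K9M and 226, 148 and 87.5 CPM in H3WT, with Dcn at 48.9 to 116 and 72.4 to 228 CPM. Within H3K9M the order of Pdgfra was the reverse of that of Sema3f, and within H3WT Col1a1 was highest in replicate 2. Dcn kept the order of Sema3f in both groups. The part of fibroblasts in the level of Sema3f was not tested.

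Of 11 endothelial markers, 1, Robo4 (-1.14 ± 0.23, edgeR adjusted p = 0.0453), fell in H3K9M and 10 had negative fold changes (median -0.59), against 1.05% and 50.5% of all genes. At an unadjusted p under 0.05, 5 were lower and 0 higher, against 8.61% and 7.78% of all genes. DESeq2 called 3 lower, against 3.69% of all genes, and limma-voom called none, Robo4 included. Robo4, Tek and Egfl7 were lower in every H3K9M library than in any H3WT library, as were 11.3% of all genes. Tek was at 6.88 to 14.3 CPM in H3K9M and 16.6 to 31.5 CPM in H3WT, and Egfl7 at 15.1 to 22.7 CPM in H3K9M and 26.0 to 33.2 CPM in H3WT. The other 8 overlapped, among them Pecam1 (20.5 to 28.7 CPM in H3K9M and 27.5 to 44.5 CPM in H3WT), Cdh5 (38.0 to 55.7 CPM in H3K9M and 53.4 to 88.7 CPM in H3WT) and Tie1 (10.2 to 17.2 CPM in H3K9M and 15.8 to 22.1 CPM in H3WT). The sum over all 11, 455, 528 and 446 CPM in H3K9M against 496, 537 and 608 CPM in H3WT, was mostly Eng, at 315 to 343 CPM in H3K9M and 301 to 345 CPM in H3WT. Plxnd1, which endothelial cells express, was highest in H3WT replicate 1 (82.2 CPM). Tek (31.5 CPM), Robo4 (4.90 CPM) and Cldn5 (2.78 CPM) were also highest there, while Eng was at its lowest. Pecam1, Cdh5 and Tie1 were there at their lowest among the H3WT libraries. They were highest in H3WT replicate 3, as were Emcn, Egfl7 and Esam, while Plxnd1 was at its lowest among the H3WT libraries (64.5 CPM). Erg was highest in H3K9M replicate 2. The part of these cells in the levels of Plxnd1, Sema3e and the neuropilins was not tested.

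Beside Sema3d, 10 epicardial and mesothelial markers summed to 201, 191 and 149 CPM in H3K9M, against 195, 160 and 142 CPM in H3WT. The sum joins markers that went both ways, 6 with positive and 4 with negative fold changes: Krt18 was at 35.0 to 74.9 CPM in H3K9M and 21.5 to 37.0 CPM in H3WT, and Aldh1a2 at 23.1 to 32.1 CPM in H3K9M and 25.4 to 86.9 CPM in H3WT. The keratin gene Krt8 was the 1 of the 10 that rose, at 11.2, 11.7 and 3.82 CPM in H3K9M and 0.606, 0.883 and 1.26 CPM in H3WT, against 0.935% of all genes, and limma-voom did not call it. At an unadjusted p under 0.05, 4 of the 10 were higher and 2 lower, DESeq2 called 1 higher and 1 lower, and limma-voom none. The shares over all genes were 7.78% and 8.61% at an unadjusted p under 0.05, and 3.22% and 3.69% in DESeq2. Wt1 was at 4.33 to 7.62 CPM in H3K9M and 6.43 to 8.76 CPM in H3WT, Upk3b at 3.35 to 5.93 and 2.19 to 3.65 CPM, and Msln at 0.838 to 1.10 and 0.338 to 0.517 CPM. The part of epicardial cells in the level of Sema3d was not tested. Lymphatic endothelial markers were close to absent apart from Prox1, which cardiomyocytes also express (28.0 to 33.8 CPM in H3K9M and 24.1 to 31.1 CPM in H3WT). Lyve1 was at 0 to 0.244 CPM in H3K9M and 0.0356 to 0.180 CPM in H3WT, and Ccl21a was not analysed here. Of 8 tested neural markers Sox10 did not exceed 0.757 CPM in any library, while Tubb3 was between 131 and 196 CPM in H3K9M and between 158 and 249 CPM in H3WT. None of the cardiomyocyte, lymphatic, mural, macrophage or neural markers passed in edgeR or limma-voom. At an unadjusted p under 0.05, 1 mural marker (Abcc9) and 1 neural marker (S100b) were higher and 0 of these markers were lower, and DESeq2 called 1 mural and 1 neural marker higher.

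**Figure D4:**
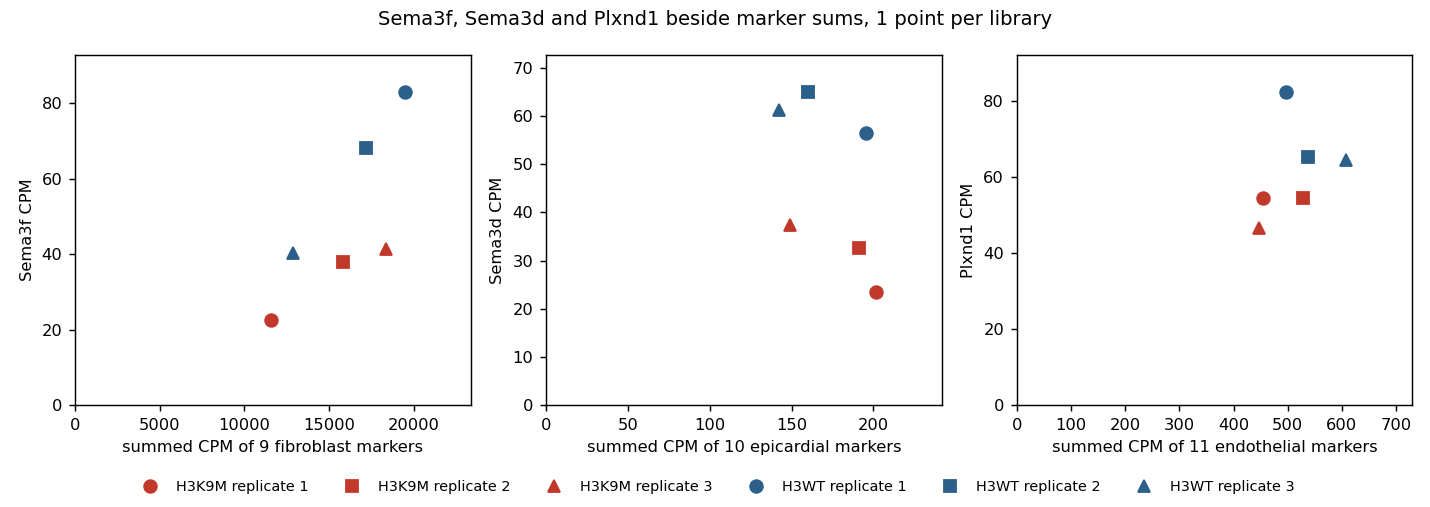
CPM of Sema3f, Sema3d and Plxnd1 (linear axes from 0) against the summed CPM of 9 fibroblast, 10 epicardial and 11 endothelial markers, with a point for each library and H3K9M in red and H3WT in blue. The fibroblast sums span 11553 to 18358 CPM in H3K9M and 12870 to 19489 CPM in H3WT, the epicardial sums 149 to 201 CPM and 142 to 195 CPM, and the endothelial sums 446 to 528 CPM and 496 to 608 CPM. The fibroblast sum is mostly collagen transcripts, the epicardial sum holds markers that went both ways and the endothelial sum is mostly Eng.

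Over the 6 libraries the profiles most like those of the 3 genes that passed were looked up among 10837 other genes with at least 5 CPM on average, by the root mean square distance of centred log2 CPM. For Sema3c they were the proteoglycan gene Acan (distance 0.18), the ectoenzyme gene Cd38 (0.26) and the ganglioside synthase gene B4galnt1 (0.28). For Sema3d they were the Wnt inhibitor gene Wif1 (0.08), Lrrc4b (0.11) and Kctd15 (0.11). For Nrp2 they included Baalc and the G protein subunit gene Gng2 (0.09 each). These are the nearest of many genes and carry no test.

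The authors' deposited table compares the same groups with DESeq2. There Sema3c, Sema3d and Nrp2 passed an adjusted p under 0.05 and the other 7 genes did not, where 4.1% of its genes with an adjusted p passed. The log2 fold changes in the authors' deposited table were -1.78 ± 0.18 for Sema3c, -0.97 ± 0.18 for Sema3d and 0.60 ± 0.13 for Nrp2. Plxnd1 was at -0.31 ± 0.13 with an adjusted p of 0.222 in the authors' deposited table, and Sema3a at 0.38 ± 0.34. The mean normalised counts of the authors' deposited table were at the median 0.252 of the mean raw counts used here, so its fold changes are set beside those above and not merged with them.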

How the data were processed

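The authors deposited raw read counts per gene (whole numbers, 6 libraries, 1 column each, matched to the labels by name). Reads were aligned with HISAT2 to mm10 and counted with featureCounts, per the submitters' processing notes, as far as these name tools. The notes name no version and no strand setting. The authors' deposited DESeq2 table holds a mean normalised count (signal), log2 fold changes, p-values and a Wald score, of which the score was not used.

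Genes were filtered with filterByExpr (at least 10 counts, 15 in total), scaled with TMM and compared with edgeR 4.0.16 (quasi-likelihood, group only) in R 4.3.3. The SE is the size of the log2 fold change over the square root of F. The biological coefficient of variation was 18.8%. For 1 gene, the smallest p of an exact permutation test over 3 and 3 libraries is 0.1. Lengths are all exons of a gene in GENCODE M21, or its longest transcript as an alternative. Alternatives used DESeq2 1.42.0, limma 3.58.1 (voom), RLE factors, 2 other filters, a threshold of 0.1, a block for the replicate number, and the removal of each library in turn. The steps were tested on simulated data.

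Named genes are the 10, the H3.3 genes, the 2 lowest p-values and 2 highest levels per kilobase of each pathway list, the first 3 of each marker list and the 3 nearest profiles of each gene that passed. Sema3g, Sema4a, Sema4g, Sema5b, Sema6b, Kdr, Flt4, Dpysl2, Robo4, Tek, Egfl7, Eng, Cldn5, Emcn, Esam, Erg, Krt8, Krt18, Aldh1a2, Tcf21, Dpt, Abcc9, S100b and genes not analysed were named outside this rule, after values were seen. Members, lists and tests were chosen with earlier results of these data known. Some genes that the rule covers are not printed.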

Additional observations from a re-analysis of the deposited data

How the results depend on the processing

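Sema3c kept its call in all 13 alternatives. Over the 10 genes, 117 of 130 values kept direction and side of the threshold, 9 lost a call and 3 gained one. The sign changed for Sema3e, at 0.31 without H3WT replicate 3 and -0.40 without H3WT replicate 1. Leaving out 1 library at a time gave 0 to 1 of the 10 genes higher and 1 to 3 lower, and 30 to 149 of all genes higher and 30 to 223 lower, against 138 and 155. DESeq2 called 475 higher and 544 lower, and an adjusted p under 0.1 gave 308 and 356. With the replicate number as a block 31 genes were higher and 27 lower, of the 10 genes 0 higher and 1 lower (Sema3c, while the edgeR adjusted p was 0.0543 for Sema3d and 0.151 for Nrp2). Deviations of same-numbered libraries correlated at -0.33, 0.10 and -0.17. Such values from so few libraries cannot show whether the samples were paired. The labels carry M1 and M5 in both groups, but M2 for H3WT replicate 2 and M3 for H3K9M replicate 2. Their meaning is not given, and the block joined M2 with M3. The titles of replicates 1 and 3 in both groups also carry the word Soft. Those of replicate 2 lack it, while 13 kPa is given for all 6 libraries. Leaving out 1 library at a time also turned the uncalled Cfl1, between -0.115 and 0.0304, and Arf6, between -0.0157 and 0.0756. With the longest transcript as length, 8 of 10 genes kept their place in H3WT (Nrp2 and Plxnd1 exchanged places) and 4 of 10 in H3K9M. Under the block, Sema5a (0.0774), Vegfc (0.163) and Dpysl4 (0.121) also lost their calls. The cause of these differences was not tested.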

Other observations

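The balance between Sema3a and Sema3c separated the groups, a measure chosen after the values were seen and not tested. On the scale of CPM per kilobase of exon, Sema3a made up 25.1%, 27.7% and 24.7% of the sum of both genes in H3K9M replicates 1, 2 and 3, against 3.19%, 5.57% and 7.78% in H3WT replicates 1, 2 and 3. Sema3c moved more than Sema3a here, by -1.74 against 0.76 on the log2 scale, and the share would differ between groups from Sema3c alone. With the longest transcript in place of all exons as length, the share averaged 38.5% in H3K9M and 9.46% in H3WT, against 25.8% and 5.51% with all exons.

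Within the class A and D plexins the summed level per kilobase overlapped between groups, at 59.5 to 67.6 CPM per kilobase in H3K9M and 61.2 to 68.9 in H3WT. The share of Plxnd1 in that sum was 9.45% to 12.5% in H3K9M and 12.8% to 18.2% in H3WT, and that of Plxna2 5.10% to 5.62% in H3K9M and 5.73% to 7.29% in H3WT. With the longest transcript the share of Plxna2 was 7.61% to 8.36% in H3K9M and 8.51% to 10.7% in H3WT. The sum was mostly Plxna1, at a mean of 48.4 CPM per kilobase of exon over all 6 libraries. The shares thus largely restate the levels of Plxnd1 and Plxna2, which were chosen on this comparison, and were not tested.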
